A study of Rattus norvegicus with 13 samples.

Results

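Sonogenetic and WT rat hearts were compared at 6 months in 6 of the 13 bulk RNA samples of the series, 3 from each group. They were taken by their labels from the table of that time point alone. Of the 38600 names in that table, 13253 passed a filter on low counts and were tested. WT hearts have the genotype label WT and the treatment label none. The sonogenetic hearts, called ST here, have the genotype label MscL-G22S and were transduced with the vector AAV2/9-cTnT-MscL-G22S-mCherry. In that adeno-associated virus vector the cTnT promoter, that of the cardiac troponin T gene, which is active in heart muscle cells, drives a variant of MscL, and mCherry is a red fluorescent protein. MscL is a bacterial channel that opens when its membrane is stretched. Sonogenetics is the use of ultrasound to act on cells that were given such a channel. The labels do not say whether ultrasound was applied before these hearts were taken, whether the 6 months run from birth or from transduction, or which part of the heart was used. The sources used here give neither strain nor sex. None of the 6 hearts received a vector without the channel, so effects of the virus, of mCherry and of the channel cannot be told apart. The 3 hearts of each group are titled biological replicates, and n is 3 per group throughout. Libraries are called WT 1 to WT 3 and ST 1 to ST 3 by the replicate numbers of their titles.

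The working heart muscle cell is filled with sarcomeres, in which myosin heads pull on actin filaments, and with mitochondria that burn mostly fatty acids. In rodent ventricles the fast myosin heavy chain Myh6 prevails, and the slow heavy chain Myh7 is the fetal form that returns under load. Stretch of these cells is read at the Z-disc, at the costameres that tie sarcomeres to the matrix, and at the intercalated discs that join cells end to end. Stretched or stressed heart muscle is known to make natriuretic peptides, Z-disc proteins of the ankyrin repeat family, immediate early transcription factors and heat shock proteins.

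The transgene MSCL_G22S had 0 counts in each WT library, where 3 counts would be 0.401 to 0.427 CPM, the counts of a gene per M counts of its library. In ST 1, ST 2 and ST 3 it stood at 197, 90.4 and 209 CPM by library total, and the ST hearts thus differed among themselves, with ST 2 lowest. Library totals were 7.02, 7.48 and 7.26 M counts in WT and 6.72, 8.49 and 7.97 M in ST hearts. The first principal component of log2 CPM held 74.3% of the variance and separated the groups. Pearson correlations of log2 CPM across genes were 0.9876 to 0.9907 within WT, 0.9854 to 0.9902 within ST and 0.9439 to 0.9544 between the groups. Ribosomal RNA took 0.431%, 0.0954% and 0.131% of counts in WT and 0.0613%, 0.183% and 0.0437% in ST hearts. The label heart tissue was checked against the defining genes of heart muscle cells, which were abundant in all 6 libraries. By library total their summed level was 141000 to 149000 CPM in WT and 125000 to 132000 CPM in ST hearts, with no overlap. With the TMM scaling described below it was 134000 to 145000 CPM in WT and 130000 to 138000 CPM in ST hearts, and the groups overlapped. These 17 genes include the myosin gene Myh6, whose mean level changed by -18500 CPM by library size, and leave out Myh7. Of the 17, 3 were higher and 1 was lower in ST hearts under both scalings used below, and the lower gene was Myh6.

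The question put to these data was which genes and gene groups differed between ST and WT hearts, and how far the answer rests on the scaling of the libraries. Levels below are CPM scaled by TMM, a method that centres most genes on no change. Differences are log2 fold changes of ST over WT with their standard error (SE). With TMM scaling, edgeR's quasi-likelihood test at a Benjamini-Hochberg adjusted p of 0.05 called 5305 of 13253 genes (40%), 2643 higher (19.9%) and 2662 lower (20.1%) in ST hearts. With scaling by library size alone it called 5445 genes (41.1%), 1731 higher (13.1%) and 3714 lower (28%). The median of all genes was -0.0016 with TMM and -0.116 by library size, and the standing of a gene with a small difference can depend on the scaling. A gene is therefore said to have risen or fallen below when it passed under both scalings in the same direction, which 4393 genes did (33.1%), 1731 higher (13.1%) and 2662 lower (20.1%). No gene passed in opposite directions. These shares are the background against which each count of list members should be read. Of the genes that passed under both, 1046 were at least 1.5-fold higher and 1542 at least 1.5-fold lower (7.89% and 11.6% of all tested). The groups did not overlap in 51.7% of genes. The p-values set the difference between the groups against the spread among the hearts within them.

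**Figure D1:**
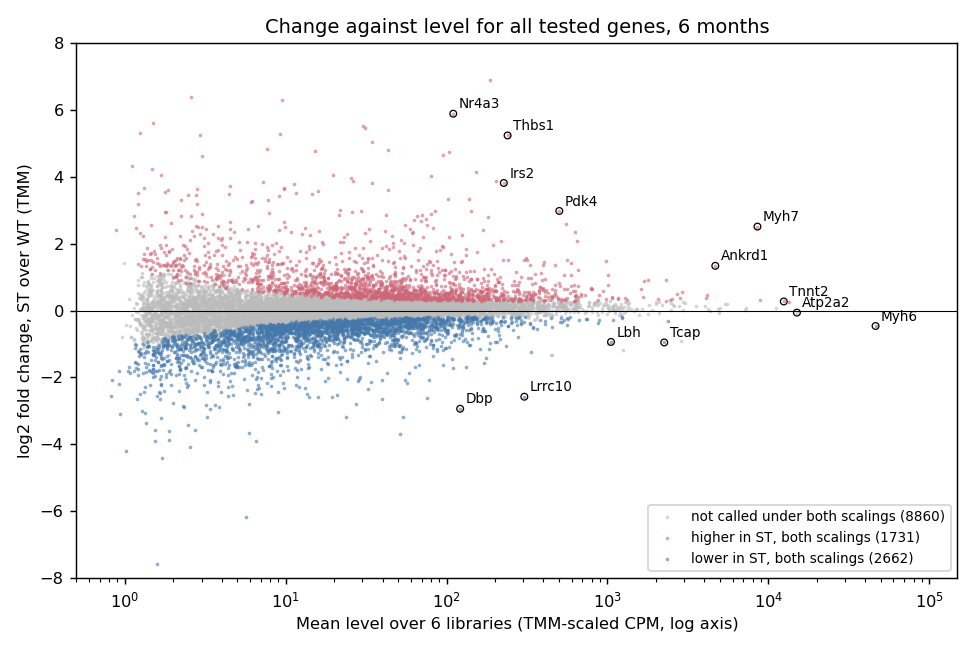
Each point is 1 of 13253 genes, with its mean TMM-scaled CPM over the 6 libraries on a log axis and its log2 fold change of ST over WT on the vertical axis; red and blue mark the 1731 higher and 2662 lower genes that passed under both scalings. At the right end, among the genes with most counts, most points lie near 0, and Myh7, Ankrd1, Tcap and Myh6 stand off it.

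The direction of change varied with the number of counts a gene had. Of 4354 genes between 1 and 10 CPM, 8.38% rose and 23.1% fell. Of 7107 genes between 10 and 100 CPM, 13.4% rose and 20.3% fell. Of 1677 genes between 100 and 1000 CPM, 23.2% rose and 11.9% fell, and of 107 genes of 1000 CPM or more, 27 rose (25.2%) and 7 fell (6.54%). Changes of at least 2-fold were rare at the top, with 3 of the 107 genes, against 17.4% of genes between 1 and 10 CPM. Of 3590 genes of at least 50 CPM, 708 rose (19.7%) and 527 fell (14.7%). The 50 genes with most counts held 25% to 25.6% of all counts in WT and 25.3% to 25.5% in ST libraries. Of these 50, 17 rose, 3 fell and 30 did not pass, and 35 lay within 1.25-fold of no change with TMM. The 3 that fell were Myh6, the Z-disc protein gene Tcap and Pde4dip, which encodes a protein that anchors a cyclic AMP phosphodiesterase (2629 to 2107 CPM, log2 -0.32, SE 0.059). By library size, the higher genes gained 103000 CPM in sum, and the lower genes lost as much, since CPM by library size have a fixed total. The 10 largest gains made up 23.1% of this sum and the 10 largest losses 27.5%. Myh7 alone gained 11400 CPM, Ankrd1 3690, Actc1 1400, Tnnt2 1360 and Hspa8 1230 CPM, while Myh6 changed by -18500, the unnamed locus LOC120093067 by -2000, Atp2a2 by -1840 and Tcap by -1620 CPM. The calcium pump gene Atp2a2 differed between the scalings: its difference was -0.062 with TMM and -0.18 by library size, and it did not pass under both.

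The heavy chain of myosin shifted toward the slow form. Myh7 stood at 2663, 2544 and 2454 CPM in the WT hearts and 15110, 11560 and 17070 CPM in the ST hearts, a 5.71-fold difference (log2 2.51, SE 0.11, adjusted p = 1.54e-08). Myh6, the fast heavy chain, stood at 51570, 53420 and 56560 CPM in the WT hearts and 37540, 42970 and 36710 CPM in the ST hearts (log2 -0.46, SE 0.06, adjusted p = 9.11e-05). All 3 ST hearts lay above all WT hearts for Myh7 and below them for Myh6, and ST 2 was the ST heart nearest to WT in both. The share of Myh7 in the counts of both genes was 4.91%, 4.55% and 4.16% in WT and 28.7%, 21.2% and 31.7% in ST hearts. An exact two-sided permutation test on these shares gave p = 0.1, the smallest that 3 against 3 hearts allow (adjusted p = 0.143 over 10 gene pairs). Skeletal actin Acta1, the fetal partner of cardiac actin, rose too, at 200.4, 161 and 196 CPM in the WT hearts and 562, 344 and 520.1 CPM in the ST hearts. Its share in the counts of Acta1 and Actc1 was 1.5% ± 0.126 (SD, n = 3) in WT and 3.14% ± 0.731 in ST hearts, with no overlap and again p = 0.1 by the exact permutation test. Tnni1, the fetal troponin I, took 0.0189% to 0.0315% of the counts of Tnni1 and Tnni3 in WT and 0.00639% to 0.0218% in ST hearts, and the groups overlapped (exact permutation p = 0.2, adjusted p = 0.25).

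Beyond the heavy chains, sarcomere genes moved in both directions, and many did not pass. Of 34 sarcomere genes tested, 13 rose, 6 fell and 15 did not pass, with a median of 0.18 with TMM and 0.068 by library size. Cardiac actin Actc1 (12190 to 14660 CPM, log2 0.27, SE 0.054) and troponin T Tnnt2 (11320 to 13660 CPM, log2 0.27, SE 0.055) rose, as did tropomyosin Tpm1 (7923 to 9798 CPM, log2 0.31, SE 0.058). So did the Z-disc crosslinker Actn2 (2459 to 3175 CPM, log2 0.37, SE 0.059) and the M-band protein Myom2 (3568 to 4644 CPM, log2 0.38, SE 0.058). Some of the small differences missed the threshold when 1 library was left out. This was so for Actc1 without WT 2, ST 1 or ST 3 (adjusted p from 0.0642 to 0.161 by library size, log2 from 0.23 to 0.28 with TMM). It was also so for Tnnt2 without WT 3, ST 1 or ST 3 (adjusted p from 0.0649 to 0.101 by library size, log2 from 0.26 to 0.27 with TMM) and for Tpm1 without WT 2, ST 1 or ST 3 (adjusted p from 0.059 to 0.0698 by library size, log2 from 0.28 to 0.30 with TMM). Among less abundant Z-disc genes, filamin C, Flnc (520 to 1449 CPM, log2 1.48, SE 0.075), and myotilin, Myot (4.82 to 38.8 CPM, log2 3.0, SE 0.14), rose. The vector carries the Tnnt2 promoter, and Tnnt2 itself, the endogenous gene, stood at 10560, 11950 and 11440 CPM in the WT hearts and 13860, 13130 and 13990 CPM in the ST hearts. In contrast, telethonin Tcap, which caps titin at the Z-disc, stood at 2673, 3116 and 3142 CPM in the WT hearts and 1449, 1540 and 1616 CPM in the ST hearts, a 1.94-fold lower level in ST hearts (log2 -0.96, SE 0.074, adjusted p = 1.5e-06), with no overlap. Myh7b (279 to 204 CPM, log2 -0.45, SE 0.07), a further slow myosin gene, and the atrial light chain Myl7 (20.4 to 8.07 CPM, log2 -1.32, SE 0.21) fell. The ventricular light chain Myl2 (7016 to 7460 CPM, log2 0.089, SE 0.055) and titin Ttn (5074 to 4790 CPM, log2 -0.083, SE 0.062) did not pass. Neither did troponin I Tnni3 (4798 to 4986 CPM, log2 0.055, SE 0.058) and myosin-binding protein C Mybpc3 (4162 to 4316 CPM, log2 0.052, SE 0.057). Every ST heart lay above every WT heart for the light chain Myl3 (5035 to 5710 CPM, log2 0.18, SE 0.066), which passed with TMM alone. Troponin C Tnnc1 (2283 to 2673 CPM, log2 0.23, SE 0.09) showed the same order and did not pass.

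**Figure D2:**
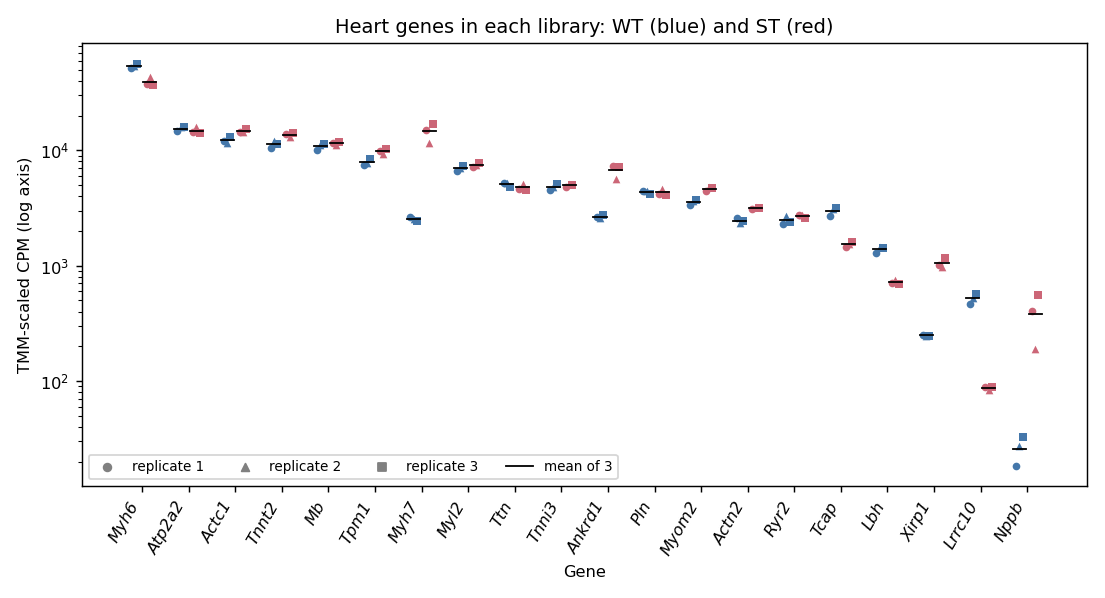
TMM-scaled CPM on a log axis of 20 heart genes in each library, WT in blue and ST in red, with a circle, triangle or square for replicates 1, 2 and 3 and a bar for the mean of 3. Myh7, Ankrd1, Xirp1 and Nppb lie higher in all 3 ST hearts, Tcap, Lbh and Lrrc10 lie lower in all 3, and Myl2, Ttn, Tnni3, Pln and Mb overlap or nearly so.

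Genes known to answer stretch of the ventricle rose as a group. Of 21 natriuretic and stretch genes tested, 17 rose, 1 fell and 3 did not pass, against 13.1% and 20.1% of all genes, and the median was 1.34 with TMM and 1.22 by library size. Ankrd1, an ankyrin repeat protein that binds titin and also acts in the nucleus, stood at 2652, 2590 and 2722 CPM in the WT hearts and 7382, 5624 and 7142 CPM in the ST hearts. Its relative Ankrd23 rose as well (25.96 to 76.97 CPM, log2 1.56, SE 0.20). Nppb, the gene of B-type natriuretic peptide, stood at 18.3, 27.2 and 32.4 CPM in the WT hearts and 400.3, 188 and 555 CPM in the ST hearts. All ST hearts lay above all WT hearts, with ST 2 nearest to them. Nppa, the gene of atrial natriuretic peptide, stood at 13.4, 40.7 and 82.9 CPM in the WT hearts and 360.2, 34.5 and 558 CPM in the ST hearts. ST 2 lay below WT 2 and WT 3 for Nppa, and the difference (log2 2.79, SE 0.76, adjusted p = 0.0118) rests on ST 1 and ST 3. Nppa did not pass in every reduced set: the threshold was missed for Nppa without WT 1, WT 2 or ST 3 (adjusted p from 0.0513 to 0.0602 by library size, log2 from 2.1 to 2.72 with TMM). Its log2 value ran from 2.1 without ST 3 to 3.54 without WT 3. Rcan1, a calcineurin inhibitor that calcineurin itself induces, stood at 141, 162 and 167 CPM in the WT hearts and 891, 975 and 964 CPM in the ST hearts, with little spread in either group. The muscle LIM protein Csrp3 (752 to 1269 CPM, log2 0.75, SE 0.072) and the actin-binding protein Xirp1 (248 to 1050 CPM, log2 2.08, SE 0.079) rose. Lmcd1, a further LIM protein, rose too (59.5 to 163 CPM, log2 1.46, SE 0.085). Synpo2l (251 to 186 CPM, log2 -0.43, SE 0.068), another Z-disc protein, fell, and Fhl2 (1612 to 1672 CPM, log2 0.053, SE 0.084) did not pass.

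Junction genes of the intercalated disc changed unevenly. Of 21 tested, 8 rose, 2 fell and 11 did not pass (median 0.10 with TMM, -0.015 by library size). Gja1, the main gap junction gene of the ventricle, stood at 604, 626 and 633 CPM in the WT hearts and 919, 1127 and 894 CPM in the ST hearts. Gja5 (10.3 to 22.6 CPM, log2 1.13, SE 0.16), the connexin of atria and conduction fibres, rose too. The desmosomal protein Pkp2 (124 to 268 CPM, log2 1.1, SE 0.065) and the myofibril anchor Nrap (747 to 1032 CPM, log2 0.47, SE 0.074) rose. Plakoglobin Jup (281 to 202 CPM, log2 -0.48, SE 0.087) and the tight junction scaffold Tjp1 (179 to 146 CPM, log2 -0.30, SE 0.072) fell. Desmoplakin, Dsp (1878 to 1915 CPM, log2 0.028, SE 0.077), did not pass. Among integrin and costamere genes, of 28 tested, 8 rose, 4 fell and 16 did not pass. The integrin beta chain Itgb1 (379.5 to 516 CPM, log2 0.44, SE 0.069) and talin Tln1 (288 to 377 CPM, log2 0.39, SE 0.081) rose, as did the focal adhesion protein Zyx (53.03 to 86.98 CPM, log2 0.71, SE 0.10). The integrin alpha chain Itga7 fell. The sarcoglycans Sgcb (242 to 195 CPM, log2 -0.31, SE 0.07) and Sgcd (101 to 71.5 CPM, log2 -0.50, SE 0.10), parts of the complex that ties dystrophin to the membrane, fell too. Talin missed the threshold in some reduced sets (Tln1 without WT 2, ST 1 or ST 3 (adjusted p from 0.0751 to 0.0865 by library size, log2 from 0.34 to 0.35 with TMM)). The costamere counts depended on single libraries, with 4 to 5 higher and 2 to 3 lower without WT 2, ST 1 or ST 3.

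Targets of the YAP coactivators and matricellular CCN genes, which respond to cell tension, were mostly higher: of 22 tested, 13 rose, 1 fell and 8 did not pass (median 0.41 with TMM, 0.30 by library size). Thbs1, a matricellular glycoprotein, stood at 12.4, 13.2 and 11.2 CPM in the WT hearts and 469, 383 and 549 CPM in the ST hearts. The matrix signalling protein Ccn1 (19.3 to 129 CPM, log2 2.75, SE 0.12) rose. The transcription factor Tead1 (283 to 390.5 CPM, log2 0.46, SE 0.076), which YAP binds, rose too. The coactivator gene Yap1 (192 to 205 CPM, log2 0.10, SE 0.06) itself did not pass under both scalings, and F3 (26.5 to 14.8 CPM, log2 -0.84, SE 0.10), tissue factor, fell. Of 16 endogenous mechanosensitive channel genes tested, 5 rose and 4 fell (3 higher and 4 lower without WT 2). The stretch-gated channel Piezo1 (21.8 to 31.8 CPM, log2 0.55, SE 0.12) and the cation channel Trpv4 (2.67 to 16.7 CPM, log2 2.64, SE 0.22) rose, and the stretch-activated potassium channel Kcnk2 (26.3 to 14.8 CPM, log2 -0.81, SE 0.16) fell. By library size Piezo1 missed the threshold in some reduced sets (Piezo1 without WT 2 or ST 1 (adjusted p from 0.0507 to 0.0619 by library size, log2 from 0.40 to 0.54 with TMM)).

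Potassium channel genes were lower for the most part. Of 20 tested, 12 fell, 2 rose and 6 did not pass, where 20.1% and 13.1% of all genes did so. Their median was -0.49 with TMM and -0.60 by library size. Kcnh2, which carries the rapid delayed rectifier current, stood at 103, 92.4 and 94.01 CPM in the WT hearts and 31.5, 27.9 and 30.3 CPM in the ST hearts. Kcnd3, a subunit of the transient outward current, stood at 43.7, 44.6 and 42.6 CPM in the WT hearts and 15.6, 23.9 and 17.2 CPM in the ST hearts. For both genes every ST heart lay below every WT heart. The inward rectifiers Kcnj2 (99.3 to 65.9 CPM, log2 -0.59, SE 0.11) and Kcnj12 (58.2 to 38.9 CPM, log2 -0.58, SE 0.082) fell. Kcnj3 (102 to 69.1 CPM, log2 -0.56, SE 0.092) and Kcnj5 (95.8 to 52.5 CPM, log2 -0.86, SE 0.20), which form the acetylcholine-gated channel, fell too. The ATP-sensitive channel's regulatory subunit Abcc9 (378 to 284 CPM, log2 -0.42, SE 0.07) fell, and its pore Kcnj11 (198 to 189 CPM, log2 -0.067, SE 0.076) did not pass. The genes that rose were Kcnip2 (586 to 784 CPM, log2 0.42, SE 0.10), the partner of the transient outward channels, and Kcnk3 (63.5 to 132 CPM, log2 1.05, SE 0.08), a background leak channel. Without WT 1, WT 2, WT 3, ST 1 or ST 3 only 1 gene rose, Kcnk3, since the threshold was missed for Kcnip2 without WT 1, WT 2, WT 3, ST 1 or ST 3 (adjusted p from 0.0509 to 0.154 by library size, log2 from 0.32 to 0.45 with TMM). Kcnd2 (23.9 to 18.9 CPM, log2 -0.35, SE 0.16), the other transient outward subunit, did not pass.

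Several calcium channel genes were lower. Among 25 sodium, calcium, pacemaker and pump genes tested, 5 rose, 10 fell and 10 did not pass. Of the L-type calcium channel, the pore Cacna1c (285 to 226 CPM, log2 -0.33, SE 0.068) and the beta subunit Cacnb2 (112 to 79.99 CPM, log2 -0.49, SE 0.071) fell. Its auxiliary extracellular subunit Cacna2d1 fell too (103 to 71.2 CPM, log2 -0.53, SE 0.13). The T-type channel gene Cacna1h stood at 43.6, 47.4 and 46.9 CPM in the WT hearts and 9.74, 11.1 and 11.2 CPM in the ST hearts, a 4.29-fold lower level. The main genes of the sarcoplasmic reticulum did not pass. Of 29 calcium cycling genes, 17 did not pass. They included the calcium pump Atp2a2 (15390 to 14740 CPM, log2 -0.062, SE 0.056) and its inhibitor Pln (4345 to 4307 CPM, log2 -0.013, SE 0.063). The release channel Ryr2 (2470 to 2697 CPM, log2 0.13, SE 0.068) and the buffer Casq2 (1333 to 1363 CPM, log2 0.032, SE 0.059) are among them as well. The sodium-calcium exchanger Slc8a1 (395 to 424 CPM, log2 0.10, SE 0.075) did not pass either. Of the rest, 5 rose, such as the junctional protein Jph2 (861 to 1094 CPM, log2 0.35, SE 0.077), and 7 fell, the 3 L-type subunits among them. Jph2 missed the threshold in some reduced sets (Jph2 without ST 1 or ST 3 (adjusted p from 0.0507 to 0.0586 by library size, log2 from 0.35 to 0.37 with TMM)). The counts of the list moved with single libraries, to 1 to 3 higher and 4 to 6 lower without WT 1, WT 2, ST 1 or ST 3.

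**Figure D3:**
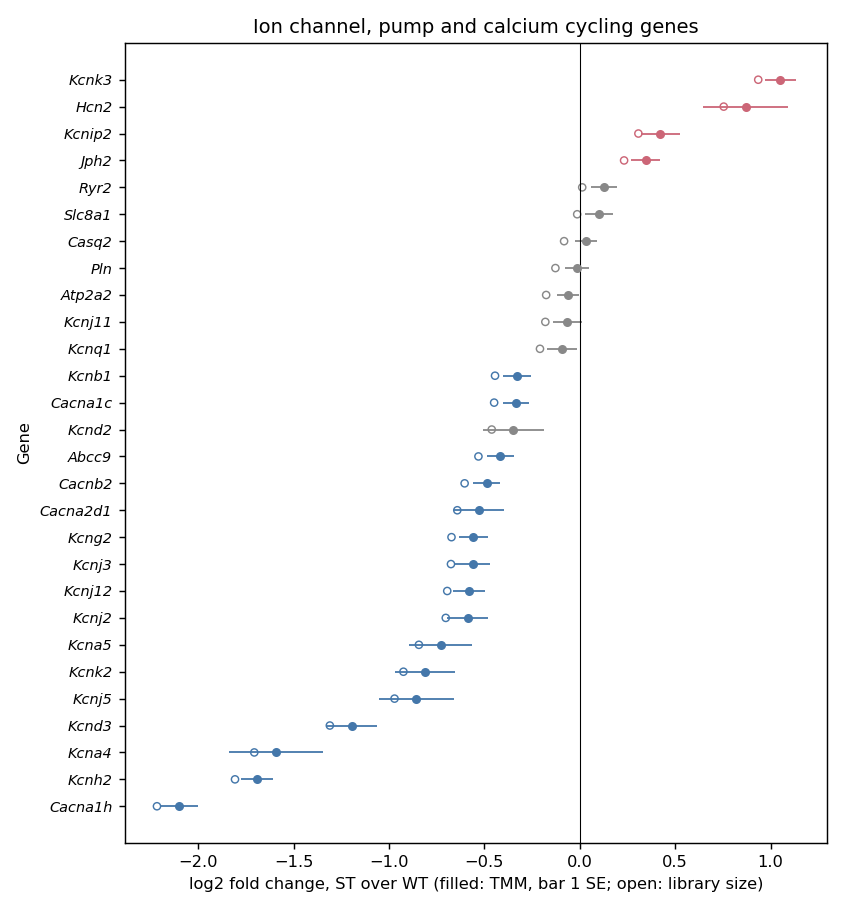
Log2 fold change of ST over WT for 28 ion channel, pump and calcium cycling genes: filled points are TMM values with a bar of 1 SE, open points are library size values, red and blue mark genes that rose or fell under both scalings and grey those that did not pass. Cacna1h, Kcnh2, Kcna4 and Kcnd3 lie farthest left, Kcnk3 and Hcn2 farthest right, and Ryr2, Casq2, Pln and Atp2a2 near 0.

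Most transcription factors that pattern the ventricle were lower. Of 9 ventricular marker genes tested, 5 fell: Irx4, Irx3, Hey2, Lbh and Prdm16, with a median of the list of -0.91 with TMM and -1.03 by library size. The patterning factor Irx5 did not pass. Without WT 2, WT 3, ST 1, ST 2 or ST 3 the count of lower genes was 4. Lbh, a cofactor gene of heart and limb development, stood at 1283, 1455 and 1415 CPM in the WT hearts and 714, 752 and 698 CPM in the ST hearts. Irx4, a homeodomain repressor of ventricular cells, stood at 30.2, 34.3 and 37.2 CPM in the WT hearts and 10.7, 10.6 and 7.48 CPM in the ST hearts. Hey2 (19.8 to 7.26 CPM, log2 -1.42, SE 0.24), a repressor of atrial genes in the ventricle, fell as well. 1 member rose, Kcnip2, described above. The structural members Myl2 and Myl3 did not pass, and the summed level of the list, in which Myl2 and Myl3 take most counts, was 13100 to 14700 CPM in WT and 14300 to 15200 CPM in ST hearts. Atrial markers gave a mixed picture: of 14 tested, 5 rose, 6 fell and 3 did not pass (2 to 3 higher and 4 to 5 lower without WT 1, WT 2 or ST 3). Pam (1253 to 1978 CPM, log2 0.66, SE 0.076), the enzyme that amidates peptides, rose with Nppa and Gja5, while Myl7, Kcnj3 and Kcna5 (10.7 to 6.37 CPM, log2 -0.73, SE 0.16) fell. Their summed level was 1710 to 1850 CPM in WT and 2250 to 3140 CPM in ST hearts.

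Of 28 cardiac transcription factor genes tested, 6 rose and 12 fell (median -0.17 with TMM, -0.29 by library size), and without ST 1 the count of higher genes was 3. Tbx20, a T-box factor of the adult heart, stood at 282, 267 and 245 CPM in the WT hearts and 622, 786 and 626 CPM in the ST hearts. Gata4 (90.2 to 136 CPM, log2 0.60, SE 0.067) and Srf (110.1 to 188 CPM, log2 0.77, SE 0.072), the serum response factor, rose. Gata6 (133 to 98.1 CPM, log2 -0.44, SE 0.088) and Hand2 (76.2 to 46.6 CPM, log2 -0.71, SE 0.074) fell. So did Mef2a (208 to 165 CPM, log2 -0.33, SE 0.065) and Prox1 (56.6 to 23.8 CPM, log2 -1.25, SE 0.11). Tbx5 (51.5 to 51.6 CPM, log2 0.0065, SE 0.10) did not pass. Genes of chromatin and DNA methylation were lower for 10 of 26 and higher for 1, Arid5a (3 higher without WT 1). The count of lower genes was 7 without WT 1, WT 2 or ST 3. All members of the TET family, which oxidises methylated cytosine, fell. Tet1 stood at 15.6, 15.8 and 16.7 CPM in the WT hearts and 2.01, 2.09 and 1.71 CPM in the ST hearts. Tet3 (23.5 to 13.1 CPM, log2 -0.86, SE 0.13) and Tet2 (30.4 to 23.1 CPM, log2 -0.40, SE 0.10) fell too. The methyltransferase Dnmt3a (57.9 to 41.95 CPM, log2 -0.46, SE 0.074) and Hdac9 (23.5 to 14.9 CPM, log2 -0.65, SE 0.11), a deacetylase that restrains MEF2, fell too.

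The immediate early transcription factors, which cells switch on within minutes of a stimulus without new protein, were higher almost throughout: 25 of 27 tested rose, 0 fell and 2 did not pass (median 1.86 with TMM, 1.74 by library size). Nr4a3, a nuclear receptor, stood at 3.25, 4.15 and 3.48 CPM in the WT hearts and 194, 262 and 194 CPM in the ST hearts. Fosl2, a partner of Jun in the factor AP-1, stood at 38.7, 34.1 and 38.2 CPM in the WT hearts and 167, 156 and 192 CPM in the ST hearts. The antiproliferative gene Btg2 (56.97 to 207 CPM, log2 1.86, SE 0.11) and Jun (87.4 to 169 CPM, log2 0.96, SE 0.084) rose by smaller factors. The 2 that did not pass were Klf10 (24.8 to 22.4 CPM, log2 -0.15, SE 0.10) and Arc (5.32 to 7.98 CPM, log2 0.58, SE 0.21). Genes of MAP kinase feedback, phosphatases and Spry genes among them, also rose in part: of 16 tested, 8 rose, 3 fell and 5 did not pass. Sik1, a kinase induced by cyclic AMP, stood at 19.6, 13.5 and 15.8 CPM in the WT hearts and 295, 268 and 304 CPM in the ST hearts. The phosphatases Dusp5 (8.10 to 40.1 CPM, log2 2.3, SE 0.22) and Dusp8 (19.8 to 73.2 CPM, log2 1.89, SE 0.11) rose, while Spry1 (41.9 to 25.1 CPM, log2 -0.74, SE 0.10) and Dusp10 (7.65 to 1.59 CPM, log2 -2.27, SE 0.22) fell. Heat shock protein genes rose for 22 of 29 and fell for 0 (median 0.63 with TMM, 0.52 by library size). The constitutive chaperone Hspa8 stood at 1623, 1609 and 1619 CPM in the WT hearts and 2832, 3337 and 2924 CPM in the ST hearts. Its cofactor Hsph1, which exchanges its nucleotide, stood at 114, 125 and 124 CPM in the WT hearts and 215, 229.9 and 219 CPM in the ST hearts. The small heat shock protein Cryab and its muscle relative Hspb7 rose as well (2249 to 3181 CPM, log2 0.50, SE 0.068 and 1194 to 2200 CPM, log2 0.88, SE 0.075). Hsp90ab1, the constitutive form of HSP90, did not pass under both scalings (1922 to 2275 CPM, log2 0.24, SE 0.059), while the inducible form Hsp90aa1 (293 to 830.3 CPM, log2 1.5, SE 0.073) rose.

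The promoters of members of these groups were read in the table of RefSeq sequences (rat assembly GRCr8), as the 250 bases before each gene's start, on both strands. The heat shock element, inverted repeats of a short unit set apart by any bases, was found in 4 of 23 heat shock protein genes with a promoter in the table (Hspa8, Hspd1, Hspe1 and Hsph1, of which Hspd1 and Hspe1 are divergent neighbours) and in 0.597% of all 27457 promoters. The CArG box, to which serum response factor binds, was found in 5 of 16 immediate early factor genes and in 1.5% of all promoters. The cyclic AMP response element, TGACGTCA, was found in 4 of the 16 and in 1.7% of all promoters, and the AP-1 site, TGANTCA, in 0 of the 16 and in 6.36%. The E-box CACGTG was found in 4 of 17 clock genes and in 5.79% of all promoters. Among the promoters of the 10897 tested genes in the table, the shares were 0.367% for the heat shock element, 1.24% for the CArG box, 2.71% for the cyclic AMP response element, 4.32% for the AP-1 site and 8.01% for the E-box. A match describes the letters of this window only, and binding was not measured here. A few promoters of genes whose values stand in the text are shown to let the motif be seen in place, written 5′ to 3′ along the gene's strand, with the matched bases in capitals. Egr2, Srf and Btg2 are immediate early genes, Hsph1 and Hspa8 are heat shock genes, and Ciart is a clock gene. Egr2 went from 0.620 ± 0.0687 to 8.42 ± 1.36 CPM, and the CArG box nearest to its start begins 83 bases before it.
Egr2 promoter with a CArG box (chr20:21054442-21054691, minus strand): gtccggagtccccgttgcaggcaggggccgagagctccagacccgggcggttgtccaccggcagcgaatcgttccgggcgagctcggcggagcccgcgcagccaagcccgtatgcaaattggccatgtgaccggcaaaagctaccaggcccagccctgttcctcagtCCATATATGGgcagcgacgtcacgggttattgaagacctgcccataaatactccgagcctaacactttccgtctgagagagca
Srf promoter with 2 CArG boxes (chr9:21923826-21924075, plus strand): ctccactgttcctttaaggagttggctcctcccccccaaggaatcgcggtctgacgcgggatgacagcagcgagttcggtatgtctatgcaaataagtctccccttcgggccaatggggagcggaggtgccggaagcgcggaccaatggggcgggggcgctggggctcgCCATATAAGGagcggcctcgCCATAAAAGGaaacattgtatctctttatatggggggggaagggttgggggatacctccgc
Btg2 promoter with a cyclic AMP response element (chr13:48087691-48087940, minus strand): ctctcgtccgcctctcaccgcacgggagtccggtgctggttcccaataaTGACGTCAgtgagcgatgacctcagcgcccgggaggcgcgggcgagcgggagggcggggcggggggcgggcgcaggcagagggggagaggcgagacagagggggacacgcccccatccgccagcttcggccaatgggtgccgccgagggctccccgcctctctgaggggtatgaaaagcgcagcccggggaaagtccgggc
Hsph1 promoter with a heat shock element (chr12:10427118-10427367, plus strand): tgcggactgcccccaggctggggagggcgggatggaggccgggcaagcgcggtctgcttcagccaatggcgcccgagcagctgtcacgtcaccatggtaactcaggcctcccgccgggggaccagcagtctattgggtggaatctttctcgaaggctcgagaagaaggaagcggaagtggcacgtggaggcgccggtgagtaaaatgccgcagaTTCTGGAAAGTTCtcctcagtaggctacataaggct
Hspa8 promoter with 2 heat shock elements (chr8:50080264-50080513, plus strand): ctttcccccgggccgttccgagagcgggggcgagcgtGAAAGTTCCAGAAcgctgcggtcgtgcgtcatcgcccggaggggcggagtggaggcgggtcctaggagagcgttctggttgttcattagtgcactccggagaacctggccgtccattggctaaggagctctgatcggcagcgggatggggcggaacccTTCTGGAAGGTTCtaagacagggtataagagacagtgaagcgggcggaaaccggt
Ciart promoter with 3 E-boxes (chr2:186112247-186112496, minus strand): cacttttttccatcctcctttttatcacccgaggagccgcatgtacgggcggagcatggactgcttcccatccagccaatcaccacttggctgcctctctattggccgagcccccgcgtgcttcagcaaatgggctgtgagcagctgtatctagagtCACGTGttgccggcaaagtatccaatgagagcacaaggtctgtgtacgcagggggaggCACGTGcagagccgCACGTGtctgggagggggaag

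**Figure D4:**
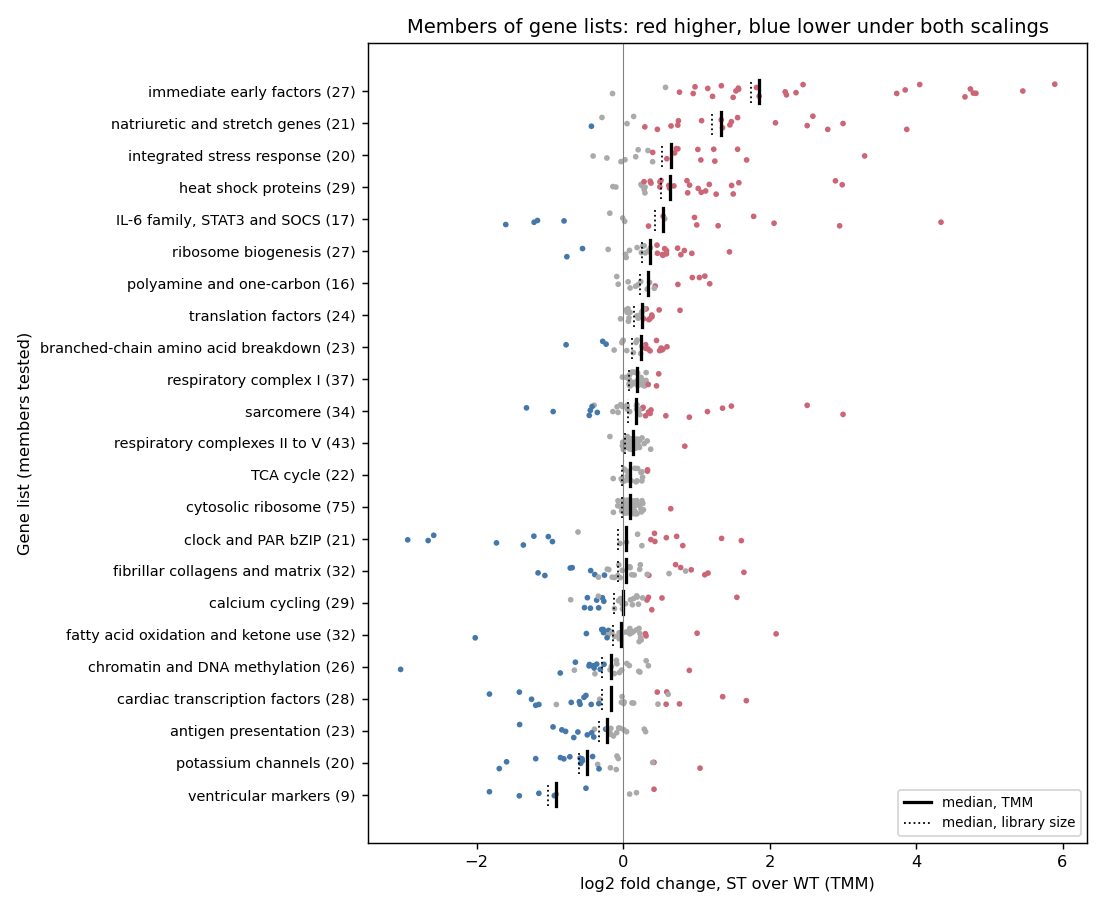
Log2 fold change (TMM) of every tested member of 23 gene lists, 1 point a gene, red and blue for members that rose or fell under both scalings and grey for the rest, with the median as a solid bar for TMM and a dotted bar for library size. Immediate early factors, natriuretic and stretch genes and heat shock proteins lie to the right, potassium channels and ventricular markers to the left, and respiratory chain and ribosome genes close to 0.

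The molecular clock, a loop in which Bmal1 and Clock switch on their own repressors through E-boxes, differed on both sides: of 21 tested, 8 rose, 8 fell and 5 did not pass (median 0.046 with TMM, -0.069 by library size). The genes that fell are outputs and repressors of the loop. Dbp, a PAR bZIP factor, stood at 209, 215 and 222 CPM in the WT hearts and 28.8, 28.6 and 26.6 CPM in the ST hearts. Its relatives Tef (248 to 127 CPM, log2 -0.97, SE 0.071) and Hlf (10.8 to 4.61 CPM, log2 -1.22, SE 0.18) fell too. The nuclear receptor Nr1d1, which represses Bmal1, stood at 189.6, 154 and 164 CPM in the WT hearts and 48.99, 53.5 and 50.4 CPM in the ST hearts. Bhlhe41 (68.3 to 10.8 CPM, log2 -2.66, SE 0.11) and Ciart (27.01 to 4.59 CPM, log2 -2.59, SE 0.18) fell as well. Bmal1 rose (2.92 to 7.47 CPM, log2 1.34, SE 0.22), as did Per2 (76.1 to 134 CPM, log2 0.81, SE 0.077). Nfil3 (9.95 to 30.4 CPM, log2 1.61, SE 0.13), the repressor that competes with Dbp, rose, and Per1 (122 to 118 CPM, log2 -0.042, SE 0.064) did not pass. No ST heart overlapped a WT heart for Dbp or Nr1d1. The sources used here do not give the hour at which hearts were taken, so the hour and the group cannot be told apart.

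Genes of hormone and second messenger signalling included some of the largest changes among genes of at least 50 CPM. Irs2, an adaptor that passes on the insulin receptor signal, stood at 30.7, 30.3 and 29.1 CPM in the WT hearts and 411, 447 and 414 CPM in the ST hearts, a 14.1-fold difference. Pik3ip1, an inhibitor of phosphoinositide 3-kinase, went the other way, at 131, 133 and 128 CPM in the WT hearts and 21.8, 22.5 and 19.3 CPM in the ST hearts. In the cyclic AMP pathway, of 26 tested, 7 rose, 6 fell and 13 did not pass. Crem (18.8 to 119.6 CPM, log2 2.67, SE 0.087), a cyclic AMP responsive factor, and Gnai3 (59.2 to 137 CPM, log2 1.21, SE 0.074), an inhibitory G protein, rose, and the phosphodiesterase Pde4a (73.5 to 31.1 CPM, log2 -1.24, SE 0.092) fell. The main beta adrenergic receptor of the heart, Adrb1 (37.6 to 26.1 CPM, log2 -0.52, SE 0.087), fell with the alpha receptor Adra1b (98.1 to 74.8 CPM, log2 -0.39, SE 0.066). The adenylyl cyclases Adcy5 (287 to 270 CPM, log2 -0.089, SE 0.073) and Adcy6 (285 to 273 CPM, log2 -0.061, SE 0.091) did not pass. Endothelin receptors split, with Ednrb (37.8 to 76.9 CPM, log2 1.02, SE 0.086) higher and Ednra (49.5 to 24.6 CPM, log2 -1.01, SE 0.10) lower. The mineralocorticoid receptor Nr3c2 (47.1 to 28.5 CPM, log2 -0.72, SE 0.089) fell. Among glucocorticoid responsive genes, of 21 tested, 11 rose, 6 fell and 4 did not pass. The growth arrest gene Cdkn1a (21.6 to 129 CPM, log2 2.57, SE 0.089) rose. The transcription factors Klf9 (165 to 87.5 CPM, log2 -0.92, SE 0.083) and Klf15 (87.3 to 50.9 CPM, log2 -0.78, SE 0.07) fell.

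Other large changes among well-measured genes lay outside these groups. Otud1, a deubiquitinase, stood at 24.5, 27.2 and 23.2 CPM in the WT hearts and 217, 285 and 256 CPM in the ST hearts. Sdc4, a heparan sulfate proteoglycan of focal adhesions, stood at 16.8, 18.5 and 20.1 CPM in the WT hearts and 167, 203 and 186 CPM in the ST hearts. Among genes that fell, Lrrc10, a leucine-rich repeat protein found in heart muscle, stood at 469.5, 526 and 570.2 CPM in the WT hearts and 89.2, 83.99 and 88.6 CPM in the ST hearts. The kelch protein gene Klhl33 stood at 90, 107 and 92 CPM in the WT hearts and 10.3, 12.3 and 8.66 CPM in the ST hearts. Gpr22, an orphan receptor gene of heart and brain, stood at 88.4, 94.2 and 86.5 CPM in the WT hearts and 20.1, 22.04 and 20.9 CPM in the ST hearts. Mid1ip1 (126 to 29.7 CPM, log2 -2.09, SE 0.078), a regulator of fatty acid synthesis, and Rgma (92.1 to 25.04 CPM, log2 -1.88, SE 0.082), a BMP co-receptor, fell as well. The groups were far apart for each of these, with no overlap.

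Few genes of energy production passed under both scalings. Of 37 complex I genes, 3 rose and 0 fell, and of 43 genes of complexes II to V, 1 rose (Cox7a1, 31.7 to 57.1 CPM, log2 0.84, SE 0.16) and 0 fell. The medians of these lists were 0.19 and 0.14 with TMM, and 0.078 and 0.022 by library size. With TMM alone, 11 complex I genes and 6 genes of the other complexes were higher, so the standing of the respiratory chain depends on the scaling. The ATP synthase gene Atp5f1b (7127 to 7184 CPM, log2 0.012, SE 0.058) did not pass. In the tricarboxylic acid cycle 2 of 22 rose, Idh2 (2238 to 2818 CPM, log2 0.33, SE 0.059) and Ogdh (1828 to 2301 CPM, log2 0.33, SE 0.059), which make and use 2-oxoglutarate. Single libraries moved these small counts. The cycle had 0 to 5 higher and 0 to 1 lower without WT 2, WT 3, ST 1, ST 2 or ST 3. Complex I had 1 higher and 0 lower without WT 1, ST 1 or ST 3, and the other complexes had 1 to 2 higher and 0 to 1 lower without WT 1, WT 3 or ST 2. Both genes of the cycle missed the threshold in some reduced sets, namely Idh2 without WT 2, ST 1 or ST 3 (adjusted p from 0.052 to 0.0587 by library size, log2 from 0.31 to 0.32 with TMM) and Ogdh without WT 2, WT 3, ST 1 or ST 3 (adjusted p from 0.0525 to 0.0579 by library size, log2 from 0.30 to 0.32 with TMM). The muscle creatine kinase Ckm (2447 to 2498 CPM, log2 0.03, SE 0.058) and myoglobin Mb (10880 to 11580 CPM, log2 0.09, SE 0.055) did not pass. The brain form Ckb (97.6 to 186 CPM, log2 0.93, SE 0.17) and the creatine transporter Slc6a8 (183 to 273 CPM, log2 0.58, SE 0.074) rose.

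Fuel genes differed one by one. Pdk4, the kinase that closes pyruvate dehydrogenase and thereby spares glucose, stood at 131, 110.3 and 97.5 CPM in the WT hearts and 769, 1038 and 868 CPM in the ST hearts, a 7.90-fold difference with no overlap. In fatty acid oxidation and ketone use, of 32 tested, 4 rose, 7 fell and 21 did not pass (median -0.027 with TMM, -0.14 by library size). The ketone enzymes Oxct1 (2171 to 2697 CPM, log2 0.31, SE 0.058) and Bdh1 (142 to 287 CPM, log2 1.01, SE 0.074) rose, as did the uncoupling protein Ucp3 (12.7 to 53.9 CPM, log2 2.09, SE 0.14). The carnitine transferase Cpt1a (101 to 71.6 CPM, log2 -0.50, SE 0.071) and the thiolase Acaa2 (1189 to 971 CPM, log2 -0.29, SE 0.064) fell. The muscle form Cpt1b (778 to 829 CPM, log2 0.092, SE 0.059) did not pass under both scalings. Cpt1a took 11.5% ± 0.869 (SD, n = 3) of the counts of both genes in WT and 7.95% ± 0.0639 in ST hearts (exact permutation p = 0.1, adjusted p = 0.143). Oxct1 missed the threshold in some reduced sets (Oxct1 without WT 3, ST 1 or ST 3 (adjusted p from 0.0651 to 0.0761 by library size, log2 from 0.29 to 0.30 with TMM)). The list had 2 to 3 higher and 3 to 5 lower without WT 2, WT 3, ST 1 or ST 3. Of 37 genes of glycolysis and pyruvate entry, 10 rose and 4 fell. The heart lactate dehydrogenase Ldhb (3509 to 4801 CPM, log2 0.45, SE 0.08) and the mutase Pgam1 (247 to 429 CPM, log2 0.80, SE 0.063) rose. Of 2 enzymes that set the activator of phosphofructokinase, Pfkfb2 (64.8 to 148 CPM, log2 1.2, SE 0.085) rose and Pfkfb3 (38.99 to 24.4 CPM, log2 -0.68, SE 0.086) fell. The glucose transporter Slc2a1 (33.2 to 23.8 CPM, log2 -0.49, SE 0.12) fell, and Slc2a4 (387 to 372 CPM, log2 -0.058, SE 0.075), the insulin-regulated transporter, did not pass. Breakdown of branched-chain amino acids had 10 of 23 genes higher and 3 lower (6 to 8 higher and 1 lower without WT 2, ST 1 or ST 3). They included subunits of the branched-chain keto acid dehydrogenase, Bckdha (216 to 268 CPM, log2 0.31, SE 0.06), Bckdhb (162 to 245 CPM, log2 0.60, SE 0.075) and Dbt (111 to 159 CPM, log2 0.52, SE 0.074). The phosphatase that activates it, Ppm1k (188 to 159.8 CPM, log2 -0.23, SE 0.069), fell. Of these, the threshold was missed for Bckdha without WT 2, WT 3, ST 1 or ST 3 (adjusted p from 0.0671 to 0.0928 by library size, log2 from 0.29 to 0.32 with TMM) and for Ppm1k without WT 2, ST 1 or ST 3 (adjusted p from 0.0621 to 0.0948 with TMM, log2 from -0.23 to -0.19 with TMM). Of 20 regulators of mitochondrial and fuel genes tested, 6 rose and 3 fell (3 higher without ST 1). The coactivators of mitochondrial genes Ppargc1a (118 to 210 CPM, log2 0.83, SE 0.11) and Perm1 (279 to 535 CPM, log2 0.94, SE 0.066) rose. The related coactivator Ppargc1b fell, as did the partners Esrrg (71.3 to 49.2 CPM, log2 -0.53, SE 0.075) and Rxra (123 to 90.8 CPM, log2 -0.44, SE 0.089). Among lipid storage genes, of 23 tested, 9 rose, 5 fell and 9 did not pass. Angptl4 (5.13 to 37.8 CPM, log2 2.87, SE 0.19), an inhibitor of lipoprotein lipase, rose, as did the droplet protein Plin4 (504 to 753 CPM, log2 0.58, SE 0.076). The triglyceride lipase Pnpla2 (375 to 287 CPM, log2 -0.38, SE 0.073) fell, and lipoprotein lipase, Lpl (3383 to 3715 CPM, log2 0.14, SE 0.061), did not pass.

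The machinery of protein synthesis moved little in its ribosomal part. Of 75 cytosolic ribosomal protein genes, 1 rose, Rpl17 (139 to 218 CPM, log2 0.65, SE 0.091; 2 rose without WT 3), and 0 fell (median 0.093 with TMM, -0.021 by library size). Genes of ribosome assembly were higher for 13 of 27 and lower for 2 (median 0.37). Rrp12 (17.1 to 47.1 CPM, log2 1.45, SE 0.12), Gnl3 (24.02 to 46.05 CPM, log2 0.94, SE 0.086) and Nop58 (28.5 to 49.3 CPM, log2 0.79, SE 0.079) rose. The RNA polymerase I subunit Polr1a (50.9 to 34.6 CPM, log2 -0.55, SE 0.10) fell. Translation factors were higher for 9 of 24 and lower for 0 (higher genes numbered 5 without WT 2, 4 without ST 1 and 5 without ST 3). Those that rose act in initiation, like the helicase Eif4a1 (132 to 227 CPM, log2 0.78, SE 0.069), the cap-binding protein Eif4e (79.02 to 104 CPM, log2 0.39, SE 0.066) and Eif5 (272 to 383 CPM, log2 0.49, SE 0.068). The elongation factors Eef1a1 (985 to 1031 CPM, log2 0.066, SE 0.064) and Eef2 (1491 to 1536 CPM, log2 0.043, SE 0.06) did not pass. In polyamine and one-carbon metabolism, of 16 tested, 6 rose, 0 fell and 10 did not pass. Ornithine decarboxylase Odc1 (65.2 to 141 CPM, log2 1.11, SE 0.079) and the methionine adenosyltransferase Mat2a (71.3 to 147 CPM, log2 1.04, SE 0.07) rose. The integrated stress response, in which Atf4 raises amino acid genes, had 12 of 20 genes higher and 0 lower (median 0.65). Atf4 (113 to 267 CPM, log2 1.24, SE 0.065) and Ppp1r15a (50.6 to 163 CPM, log2 1.69, SE 0.081) rose, as did the amino acid transporter subunit Slc3a2 (56.8 to 119 CPM, log2 1.06, SE 0.072). Of 24 unfolded protein response genes 8 rose, Hspa5 (623 to 966 CPM, log2 0.63, SE 0.084) and Hsp90b1 (357 to 553 CPM, log2 0.63, SE 0.07) among them, and 1 fell, Edem1 (52.9 to 42.5 CPM, log2 -0.31, SE 0.077) (2 fell without ST 2).

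Protein breakdown genes split by route. Proteasome subunits rose for 3 of 31 and fell for 0 (0 to 1 higher and 0 lower without WT 1, WT 2, ST 1 or ST 3). Autophagy and lysosome genes rose for 2 and fell for 2 of 27 (2 to 5 higher and 1 to 2 lower without WT 3, ST 1, ST 2 or ST 3). Ubiquitin ligases and FOXO genes moved more, with 8 of 26 higher and 11 lower. Fbxo32 (atrogin-1), the ligase known from muscle wasting, stood at 36.1, 53.6 and 41.6 CPM in the WT hearts and 21.02, 24.6 and 21.5 CPM in the ST hearts. Its activator Foxo3 (124 to 76.2 CPM, log2 -0.71, SE 0.075) fell. The muscle ligase adaptor Asb2 (384 to 801 CPM, log2 1.06, SE 0.10) and Klhl40 (6.05 to 21.9 CPM, log2 1.84, SE 0.20), a stabiliser of thin filament proteins, rose. The polyubiquitin gene Ubb (807 to 678 CPM, log2 -0.25, SE 0.074) fell.

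Matrix genes changed in both directions, with Col1a1 and Col3a1 among those that fell. Of 32 matrix genes tested, 7 rose, 7 fell and 18 did not pass, where 13.1% of all genes rose and 20.1% fell. Col1a1 stood at 109, 122 and 129 CPM in the WT hearts and 51.8, 62.6 and 46.3 CPM in the ST hearts. Col3a1 stood at 302, 299 and 347 CPM in the WT hearts and 170.5, 132 and 150.3 CPM in the ST hearts. All ST hearts lay below all WT hearts for both. Col15a1 (156 to 94.2 CPM, log2 -0.72, SE 0.08) and the collagen-binding protein Sparc (986 to 754 CPM, log2 -0.39, SE 0.07) fell too. Elastin, Eln (20.1 to 38.3 CPM, log2 0.93, SE 0.12), Col8a1 (10.8 to 23.6 CPM, log2 1.11, SE 0.19) and Col12a1 (4.2 to 9.48 CPM, log2 1.16, SE 0.19) rose. Fibronectin, Fn1 (58.2 to 55.2 CPM, log2 -0.072, SE 0.13), and decorin, Dcn (468 to 547 CPM, log2 0.23, SE 0.065), did not pass under both scalings. In the basement membrane the laminin gene Lama5 stood at 93.1, 79.4 and 78.3 CPM in the WT hearts and 372, 316 and 371 CPM in the ST hearts. The type IV collagens Col4a1 (291 to 476 CPM, log2 0.71, SE 0.10) and Col4a2 (278 to 413 CPM, log2 0.57, SE 0.081) rose and Col4a3 (41.2 to 17.3 CPM, log2 -1.25, SE 0.10) fell. Matrix proteases and inhibitors split evenly, 8 higher and 8 lower of 22. The proteases Adamts1 (40.5 to 151 CPM, log2 1.9, SE 0.11) and Adamts9 (20.1 to 101 CPM, log2 2.33, SE 0.093) and the collagen chaperone Serpinh1 (222 to 337 CPM, log2 0.60, SE 0.073) rose. The inhibitor Timp3 (422 to 344 CPM, log2 -0.30, SE 0.075) and the protease Mmp15 (88.7 to 39.9 CPM, log2 -1.16, SE 0.082) fell. In TGF-beta and BMP signalling, of 30 tested, 12 rose, 4 fell and 14 did not pass. The inhibitor Smad7 (37.5 to 63.8 CPM, log2 0.77, SE 0.091) and the BMP target Id1 (40.6 to 78.5 CPM, log2 0.95, SE 0.10) rose. The receptors Tgfbr2 (157 to 126 CPM, log2 -0.31, SE 0.067) and Tgfbr3 (123 to 64.1 CPM, log2 -0.94, SE 0.087) fell.

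Vascular signals changed in both directions. Vegfa, the main angiogenic ligand of heart muscle, stood at 714, 626 and 630.5 CPM in the WT hearts and 1331, 1306 and 1462 CPM in the ST hearts. Angpt1, the ligand that keeps vessels quiet through the receptor Tek, stood at 78.1, 113 and 87.3 CPM in the WT hearts and 11.9, 34.4 and 14.04 CPM in the ST hearts. ST 2 was the ST heart nearest to WT, and without it the log2 value of Angpt1 was -2.83, against -2.18 with it. The receptors Kdr (148 to 177 CPM, log2 0.25, SE 0.10) and Tek (93.8 to 112 CPM, log2 0.26, SE 0.087) did not pass under both scalings. Flt1 (217 to 318 CPM, log2 0.55, SE 0.10) rose, and Nrp1 (228 to 133 CPM, log2 -0.77, SE 0.074) and the apelin receptor Aplnr (48.9 to 16.5 CPM, log2 -1.57, SE 0.11) fell. Of 19 such genes, 5 rose and 5 fell (3 to 7 higher and 3 to 5 lower without WT 1, WT 2, WT 3, ST 1 or ST 3). Of 21 hypoxia response genes, Vegfa among them, 5 rose and 6 fell. The prolyl hydroxylase P4ha1 (42.5 to 116 CPM, log2 1.45, SE 0.074) rose and Ddit4 (66.6 to 40.3 CPM, log2 -0.73, SE 0.093) fell. Bnip3 (258 to 263 CPM, log2 0.024, SE 0.084), Egln1 (199 to 214 CPM, log2 0.11, SE 0.081) and Epas1 (627 to 648 CPM, log2 0.048, SE 0.10) did not pass.

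Immune genes changed in both directions. Of 23 antigen presentation genes, 10 fell, class II chains among them, and 0 rose (median -0.21 with TMM, -0.33 by library size). RT1-Da, a rat class II chain, stood at 26.1, 32.5 and 29.6 CPM in the WT hearts and 16.5, 17.7 and 15.1 CPM in the ST hearts. The invariant chain Cd74 (273 to 231 CPM, log2 -0.24, SE 0.062) fell, with the threshold missed for Cd74 without ST 1 (adjusted p = 0.0509 with TMM, log2 -0.22 with TMM). B2m (869 to 846 CPM, log2 -0.039, SE 0.062), which class I needs, did not pass. RT1 genes belong to a family of near-identical copies, so that reads may have been split between them. Interferon-stimulated genes had 3 of 31 higher and 5 lower, with Bst2 (45.5 to 118 CPM, log2 1.38, SE 0.10) among the first. In the IL-6 pathway, of 17 tested, 9 rose, 4 fell and 4 did not pass. The transcription factor Stat3 (192 to 386 CPM, log2 1.0, SE 0.063) and the oncostatin receptor Osmr (27.8 to 68.3 CPM, log2 1.3, SE 0.12) rose, as did the feedback gene Socs3 (5.90 to 46.03 CPM, log2 2.96, SE 0.34). The receptor Lifr (124 to 71.05 CPM, log2 -0.81, SE 0.089) fell. Socs2 (132 to 58.5 CPM, log2 -1.17, SE 0.12) and the kinase Pim3 (121 to 52.1 CPM, log2 -1.22, SE 0.069) fell too. Of 22 NF-kappaB genes 10 rose and 1 fell, Cxcl12 (255 to 206 CPM, log2 -0.31, SE 0.082) (2 fell without ST 2). They included Nfkbia (74.9 to 110 CPM, log2 0.56, SE 0.074), Nfkbiz (4.03 to 22.3 CPM, log2 2.47, SE 0.17) and Tnfrsf12a (6.49 to 79.8 CPM, log2 3.62, SE 0.18), the receptor of TWEAK. Antioxidant genes of the NRF2 group rose for 8 and fell for 4 of 29 (2 fell without ST 1), and the sulfiredoxin gene Srxn1 stood at 11.4, 11.1 and 7.90 CPM in the WT hearts and 77.6, 69.95 and 75.3 CPM in the ST hearts.

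Markers of other cells of the heart were measured beside these groups. In whole tissue, fewer cells of a type and less RNA per cell cannot be told apart. The summed level of fibroblast markers was 3380 to 3750 CPM in WT and 3740 to 4170 CPM in ST hearts, and 5 of 19 rose while 4 fell, Col1a1, Col1a2 and Col3a1 among them (3 higher and 4 to 5 lower without WT 1, WT 2, ST 1 or ST 3). Gsn has the most counts of this list, as 45th of all tested genes by level, and weighs most in its sum. It was higher in ST hearts with TMM alone (log2 0.26). Endothelial markers summed to 2160 to 2500 and 2440 to 2870 CPM, with 7 of 21 higher and 4 lower (4 higher and 4 lower without WT 2 or ST 3). Smooth muscle and pericyte markers summed to 3220 to 3390 and 3690 to 4110 CPM, with 8 of 17 higher and 1 lower (5 higher and 1 lower without WT 2, WT 3 or ST 3). Acta2, smooth muscle actin, is among those that rose (31.4 to 76.02 CPM, log2 1.27, SE 0.15). Des rose too (log2 0.30 with TMM). It is 38th of all tested genes by level and takes most of this sum. Des is also counted among the intercalated disc genes and the stretch genes, so the sum is not that of smooth muscle and pericytes alone. By library total the smooth muscle and pericyte sums overlapped, at 3320 to 3570 CPM in WT and 3530 to 3930 CPM in ST hearts. Macrophage markers summed to 208 to 263 and 194 to 267 CPM, so that the groups overlapped, and 0 of 20 rose and 2 fell (1 higher and 1 to 2 lower without WT 3 or ST 3). Lymphocyte markers summed to 26.3 to 33.6 and 30.4 to 38.7 CPM with Ms4a1 at 0 counts, and neutrophil and mast cell markers to 18.1 to 22.3 and 14.8 to 24.1 CPM with Mpo and Elane at 0. Erythroid genes summed to 874 to 1020 and 1340 to 1440 CPM, with 6 of 9 higher. Mesothelial and epicardial markers summed to 228 to 261 and 90.3 to 128 CPM, of which Aldh1a1, a retinaldehyde dehydrogenase, held most, at 192, 207 and 210.5 CPM in the WT hearts and 48.4, 85.8 and 51.8 CPM in the ST hearts. Adipocyte markers summed to 645 to 680 and 554 to 671 CPM with Adipoq, Cidec and Ucp1 at 0. By library total the adipocyte sums did not overlap, at 679 to 700 CPM in WT and 530 to 642 CPM in ST hearts. Skeletal muscle markers summed to 41 to 54.2 and 47.8 to 58.9 CPM with Myh1, Pvalb, Myog and Myod1 at 0. Schwann cell and neural markers summed to 187 to 207 and 145 to 170 CPM. The part of these cells in the differences of the other gene groups was not tested.

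The 3 ST hearts did not differ from WT to the same degree. Of 4332 genes that passed under both scalings with no overlap of the groups, ST 2 was the ST heart nearest to the WT mean in 2061 (47.6%), ST 1 in 1243 and ST 3 in 1028. ST 2, the heart with the lowest transgene level, had the lowest Myh7, Nppb, Nppa, Acta1 and Ankrd1 of the 3, genes picked after their values were seen (Acta1: 562, 344 and 520.1 CPM; Ankrd1: 7382, 5624 and 7142 CPM). It also had the levels nearest to WT of Angpt1 and Aldh1a1. In the list of natriuretic and stretch genes as a whole, ST 2 was nearest to WT in 9 of 17 (52.9%) and farthest in 5 (29.4%), near the shares of all genes, and Rcan1 was highest in ST 2. For immediate early factors the order was another: ST 2 was the farthest from WT in 13 of 25 such genes (52%), against 28.1% of all 4332 genes. It was the nearest in 8 of the 25 (32%). The share with ST 2 farthest varied between lists, with 66.7% of 9 unfolded protein response genes and 0% of 13 IL-6 pathway genes. Egr1, a zinc finger factor of this group, stood at 166, 211 and 175 CPM in ST hearts, and Nr4a3 and Otud1 too were highest in ST 2. For Dbp, Irs2 and Lrrc10 the 3 ST hearts were close to each other. With 3 ST hearts, no relation between transgene level and any gene was tested.

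**Figure D5:**
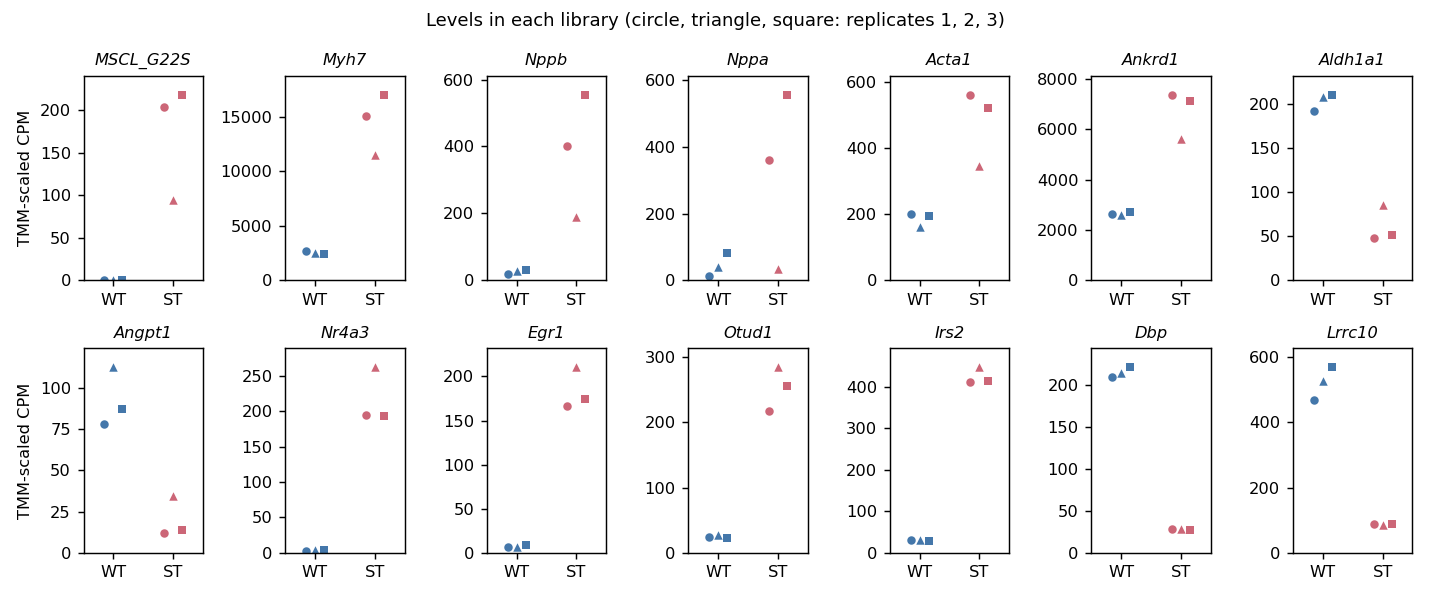
TMM-scaled CPM of 14 genes in each library, 1 panel a gene with its own linear axis from 0, WT in blue and ST in red, circle, triangle and square for replicates 1, 2 and 3. The triangle of ST 2 is lowest among ST hearts for the transgene, Myh7, Nppb, Nppa, Acta1 and Ankrd1, highest for Nr4a3, Egr1, Otud1 and Irs2, and close to the others for Dbp and Lrrc10.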

How the data were processed

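Total RNA of heart tissue was sequenced in bulk, per the labels' protocols. The values are expected counts per gene as deposited by the authors, in 1 table of the 6-month hearts: 10.5% of values are not whole, and 16526 names have 0 in every library. The sources used here do not name the tool that estimated them. The genome builds in the submitters' processing notes are those of mouse, GRCm38 and mm10, whereas the names in the table are rat gene names, so no position of a gene was taken from those builds.

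Expected counts were rounded to whole numbers. Genes were kept by filterByExpr and tested two-sided with edgeR 4.0.16 (glmQLFit and glmQLFTest, R 4.3.3), with TMM scaling and again with plain library totals, each with Benjamini-Hochberg adjustment over 13253 genes. An SE was taken from the log2 fold change and the root of its F statistic. A floor is 3 counts and covers counting error only. Gene lists (68, with 1529 tested entries) were described by counts and medians without a set test. The members, lists and tests were chosen with earlier results of these data known. Alternatives were other scalings and filters, DESeq2 1.42.0, limma-voom (limma 3.58.1), a replicate block, a 1.5-fold minimum, and leaving out each library. The procedure was tested on simulated data. The other time points were left out, since their tables were made separately.

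Genes were named by rule: 44 fixed heart genes, the 50 genes with most counts, per list the 6 tested members with most counts and up to 3 of smallest p in each direction, and the 10 largest changes each way among genes of at least 50 CPM. The text names a selection of these, made after their values were seen. The list members Ankrd23, Lmcd1, Kcnj12, Kcnj5, Cacna2d1, Tet2, Hdac9, Klf10, Arc, Hsph1, Egr2, Hlf, Ciart, Bmal1 and some others named without a value of their own lie outside the rule and were chosen after their values were seen. Some list members are counted in their lists and not reported here by name.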

Additional observations from a re-analysis of the deposited data

How the results depend on the processing

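With TMM scaling, the count of 5305 genes stayed within 1.5 times under every other scaling, filter and test tried, from 4083 with DESeq2 to 5622 without a filter. Leaving out 1 library gave 4139 to 5520 genes (higher 2045 to 2789, lower 2094 to 2731), and 3462 to 4640 under both scalings (higher 1368 to 1909, lower 2094 to 2731). By library size alone the higher genes numbered 1731. A minimum of 1.5-fold left 2648 genes with TMM, 1106 higher and 1542 lower, and 2588 under both scalings, 1046 higher and 1542 lower, by its construction. Of the 4393 genes called under both scalings, the share still called in the same direction was 82.1% with DESeq2, 85.4% with a filter of 5 CPM, 99% with limma-voom and 83.6% to 92.6% with 1 library left out. Each of these shares rests on only 1 scaling, TMM or, in DESeq2, its own size factors. That is a looser rule than passing under both scalings. Among the genes given with values, none reversed under any alternative. Nppa had an adjusted p = 0.0668 in limma-voom.

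Replicate numbers are shared by both groups. Deviations from the group means correlated at 0.0297, 0.111 and 0.0039 for the pairs with the same number, so the numbers do not pair the hearts, and of the 6 hearts only WT 2 and ST 2 correlated best with the heart of their own number. With the replicate number as a block, 5435 genes passed with TMM and 4468 under both scalings.

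The libraries, of 6.72 to 8.49 M counts, limit what can be said of genes of few counts, where more genes fell than rose.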
